A study of Mus musculus with 6 samples.

Results

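Transcripts of the small heat shock proteins were followed in quadriceps muscle of mice that lack or keep protein O-fucosyltransferase 1, the Pofut1 product, which attaches fucose to EGF-like repeats of Notch receptors and other proteins. The genes considered were Hspb1, Hspb2, Hspb3, Hspb6, Hspb7, Hspb8 and Cryab, which are 7 of the 18193 genes measured. They were read by 14 of the 34945 probe sets that the platform annotation pairs with a single gene symbol, leaving out the array's control probe sets. Both groups carried cre under skeletal alpha-actin, together with floxed Pofut1 in the 3 knockout samples and with wild-type Pofut1 in the 3 control samples. All were labelled C57/Bl6 and 2 months old, and the skeletal alpha-actin promoter directs the cre to muscle fibres, so Pofut1 in vessels, nerve and connective tissue of the same muscle is not its target. The labels do not state separate animals within a group, so p-values measure the spread between samples, part of which may be technical. Each sample was read on 1 array, and values are intensities on a linear scale.

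Small heat shock proteins are chaperones that share an alpha-crystallin domain and work without ATP. They bind partly unfolded proteins and hold them until ATP-driven chaperones of the Hsp70 and Hsp40 families refold them or hand them to degradation. Striated muscle expresses most of the family, and its members bind desmin, actin, filamin and titin at the Z-disc and along the myofibril, where mechanical strain unfolds proteins.

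Of the 6 arrays, the array labelled control replicate 3 differed most. Over all genes its correlation with the others (log2 values) was 0.94 to 0.945, against 0.98 to 0.991 among the other 5. The ratio of 3' to 5' intensity of Gapdh, which follows the integrity of RNA, was 10.5 in that array, 3.7 in knockout replicate 2 and 1.73 to 1.97 in the remaining 4. The intensity of Pofut1 was 194.3 to 231.1 in the knockout samples, while the control arrays read 301.4, 379.8 and, in the array labelled control replicate 3, 90.6, so that the last ran against its label. The sources used here do not place this probe set inside or outside the deleted part. All 10 of the 10 skeletal muscle markers checked had means above background, an intensity of 82.5 that marks the 95th percentile of 32 genes restricted to other tissues.

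None of the small heat shock protein genes passed the test between knockout and control muscle. Hspb1 had lower values in every knockout sample than in any control sample. Hspb8 had a positive difference with overlap between the groups, and the other genes also overlapped, with smaller or less certain differences. Limma with Benjamini-Hochberg adjustment over all genes called 0 of the 7 genes, against 0 of all 18193 (0%). At an unadjusted p under 0.05 it gave 1 of the 7 genes and 468 of all genes (2.57%). Of the 7 genes, 4 had log2 fold changes above 0 and 3 below, with a median of 0.001 beside a median of -0.009 over all genes. With quantile normalization 2 were above 0 and 5 below. The groups did not overlap for 1 of the 7 genes, or 14.3%, against 9.01% of all genes, and 1 gene among 7 cannot set that share apart from the background. Among the 14 probe sets, 2 did not overlap, both of Hspb1, against 7.98% of all probe sets.

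**Figure D1:**
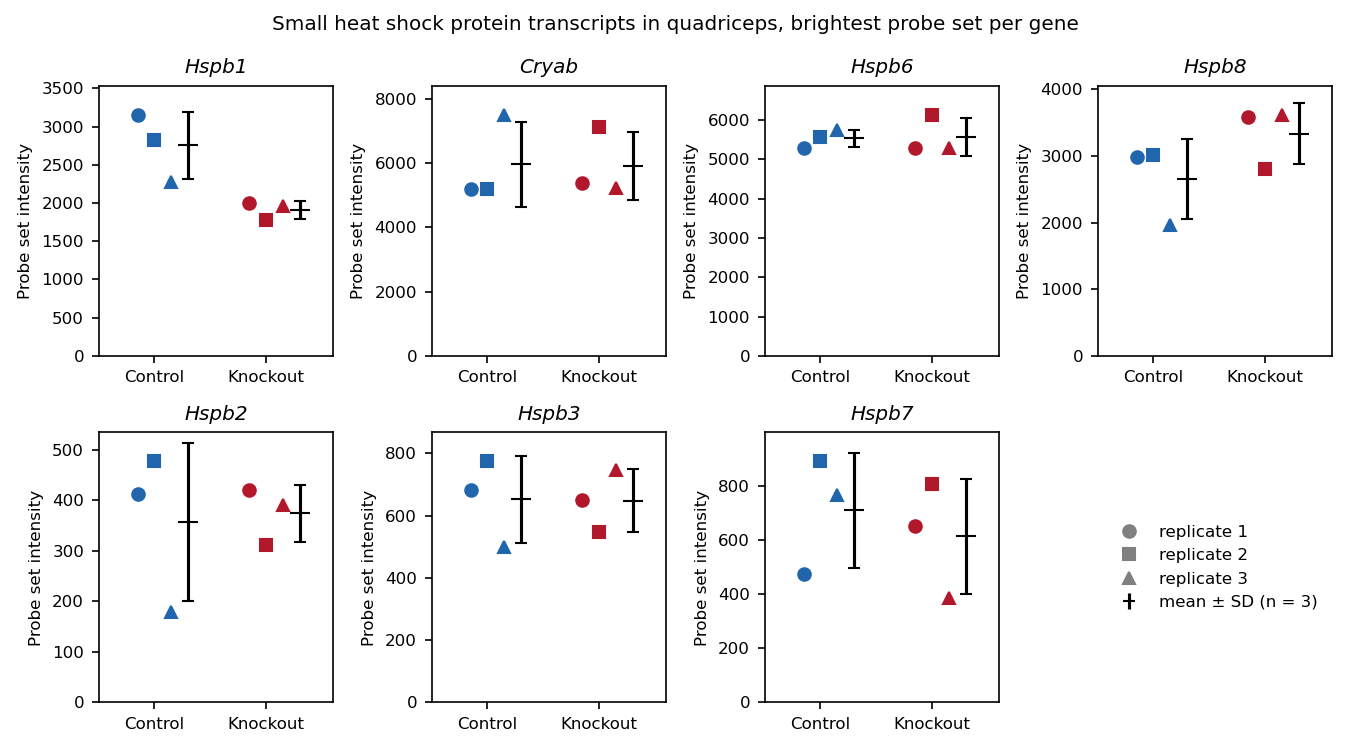
Intensity of the brightest probe set of each gene (vertical axes, linear from 0) in control (blue) and knockout (red) samples, with the replicate number as symbol and the mean ± SD of 3 samples in black. Hspb1 is the gene whose groups do not overlap, with 1774 to 2001 in the knockout and 2279 to 3153 in the control samples.

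Hspb1, known as Hsp25 in mouse, is a stress-inducible chaperone that binds actin filaments. Knockout replicates 1 to 3 read 2001, 1774 and 1957 with its brightest probe set, whereas control replicates 1 and 2 and the array labelled control replicate 3 read 3153, 2827 and 2279. Values of other genes are given in the same order of replicates. All knockout values lay below all control values, and the lowest control value was in the array with the high 3' to 5' ratio. The log2 fold change was -0.52 ± 0.15 (SE, 3 against 3 samples), a level 1.43-fold higher in control, with a 95% confidence interval of -0.87 to -0.17. The limma adjusted p was 0.971 and the unadjusted p 0.0101, which ranked Hspb1 at place 57 of all genes. The exact two-sided permutation p was 0.1, the smallest that 3 against 3 samples allow. A further probe set of Hspb1 read 1769 to 1920 in the knockout and 2253 to 3069 in the control samples, with a log2 fold change of -0.52 ± 0.14. The probe sets read the same RNA, and the name of the further one, which ends in _x_at, marks probes that can match other transcripts, so they are not independent. Among the genes of the family, Hspb1 also had a small spread within groups, 0.181 on the log2 scale against a median of 0.286 for genes above background.

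The size of the difference in Hspb1 varied with the arrays used. The log2 fold change ranged from -0.65 without the array labelled control replicate 3 to -0.41 without control replicate 1, as single arrays were left out. Its sign there follows from the lack of overlap between all samples and adds nothing to it. With both arrays of high 3' to 5' ratio left out, an alternative chosen after seeing the data, it was -0.59 (limma unadjusted p = 0.00109, adjusted p = 0.662). Hspb1 is also transcribed in cells other than muscle fibres, and in a whole-muscle extract fewer cells of a type cannot be told apart from less RNA per cell. Of 12 smooth muscle and pericyte markers 11 had means above background and 8 had higher values in the knockout, with summed intensities of 9626 to 10870 in the knockout and 9475 to 10300 in the control samples. Without Des, which skeletal muscle also expresses, the sums of the other 11 were 6398 to 6666 and 5357 to 6816. Lmod1, Myh11 and Mylk of that list lay higher in the knockout without overlap, as did 3.33% of all genes. Their log2 fold changes were 0.98 ± 0.22, 0.92 ± 0.45 and 0.31 ± 0.14 (limma unadjusted p = 0.00265, 0.0792 and 0.0569, adjusted p = 0.971 for each). Lmod1 read 86.32 to 95.5 in the control arrays, close to background. Myh11 read 195 and 193.5 in control replicates 1 and 2 and 64.19, below background, in the array labelled control replicate 3. The 4 markers lower in the knockout had log2 fold changes of -0.20 to -0.010, and all 4 overlapped. The sum over 10 endothelial markers, all above background, was 2921 to 3414 in the knockout and 2528 to 3038 in the control samples, with 8 of 10 higher in the knockout. Of these 10, 1 (Cdh5) lay higher without overlap (0.57 ± 0.19, unadjusted p = 0.0218, adjusted p = 0.971 in limma), as did 3.33% of all genes. All 8 adipocyte markers measured, 7 of them above background, were higher by mean (median 0.46), with sums of 5362 to 10320 and 5699 to 7094, but 4 of 8 were higher without knockout replicate 3. Sums over 10 macrophage markers, also all above background, were 6827 to 11400 in the knockout and 8060 to 13240 in the control samples. Of the 10, 8 were lower in the knockout. Of these 10, 1 (Folr2) lay lower without overlap (-0.64 ± 0.26, unadjusted p = 0.0415, adjusted p = 0.971 in limma), as did 5.68% of all genes. Ms4a7 had -1.14 ± 0.46, with overlap. The highest macrophage sum was in control replicate 1 (Hspb1 3153) and the next, 11400, in knockout replicate 1 (Hspb1 2001). Without control replicate 1, 4 of the 10 macrophage markers were lower in the knockout (Hspb1 -0.41). Without the array labelled control replicate 3 all 10 were lower (Hspb1 -0.65). With another single array left out, 6 to 9 of the 10 were lower. In control replicate 1 the sum over 12 slow-fibre genes was the lowest, at 11570, against 20840 to 28310 in the other 5 arrays. The part of these cell and fibre types in the values of Hspb1 was not tested.

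Heat shock factors are known to act through elements before the transcription start, so these sequences are shown for the gene whose groups did not overlap, for a gene with nearly equal values in all arrays, and for the gene with the largest positive difference. Of the 7 genes, 5 matched the RefSeq promoter table of build GRCm38.p6, with 6 windows in all, since Hspb6 has alternative starts. Each line gives the 250 bases before a start, 5′ to 3′ on the gene's strand. Capitals mark GAANNTTC, a core of the heat shock element.
Hspb1 (chr5:135887669-135887918, plus strand): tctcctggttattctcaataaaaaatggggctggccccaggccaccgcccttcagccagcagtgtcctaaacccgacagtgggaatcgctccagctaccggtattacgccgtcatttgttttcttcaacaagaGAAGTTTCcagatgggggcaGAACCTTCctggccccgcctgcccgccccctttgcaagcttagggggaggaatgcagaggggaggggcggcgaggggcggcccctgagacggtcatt
Hspb6 (chr7:30553051-30553300, plus strand): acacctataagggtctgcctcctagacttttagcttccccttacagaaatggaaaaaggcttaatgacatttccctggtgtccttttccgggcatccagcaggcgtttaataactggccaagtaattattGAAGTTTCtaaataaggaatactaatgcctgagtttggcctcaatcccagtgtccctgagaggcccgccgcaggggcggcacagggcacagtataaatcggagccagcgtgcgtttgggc
Hspb8 (chr5:116422865-116423114, minus strand): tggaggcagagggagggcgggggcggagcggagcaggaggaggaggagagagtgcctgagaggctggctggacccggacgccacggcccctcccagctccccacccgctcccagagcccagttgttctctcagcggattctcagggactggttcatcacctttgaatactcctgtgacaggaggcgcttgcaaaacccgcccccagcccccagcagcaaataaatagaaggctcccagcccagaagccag
The window of Hspb1 held GAANNTTC 2 times, at 117 to 110 and at 97 to 90 bases before the start, with no overlap between the matches. At least 2 matches occurred in 75 of the 32851 windows of the table (0.228%), and at least 1 in 6.69%. The cutoff of 2 is the count of the Hspb1 window itself, so this share is not a test of that window. The second start of Hspb6 had a match at 120 to 113 bases and Hspb3 had one at 224 to 217 bases before the start, while the first start of Hspb6, Hspb7 and Hspb8 had none. The reversed core TTCNNGAA, found in 7.17% of windows, was in none of the 6. Both patterns read the same on either strand. TATAAA, searched on both strands and present in 12.4% of windows, stood at 29 to 24 bases before the second start of Hspb6 and at 11 to 6 bases before that of Hspb3, where it overlaps a match to the MEF2 box, a muscle element found in 2.92% of windows. These matches describe letters in the windows and do not show that a factor binds there. Cryab and Hspb2 were not matched in the table.

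Hspb8 works with the co-chaperone Bag3 in the autophagy of damaged Z-disc proteins. The knockout samples read 3584, 2804 and 3615 with its brightest probe set, and the control arrays read 2987, 3020 and 1963. The lowest value of each group was in the array of that group with the highest 3' to 5' ratio, and the groups overlapped through knockout replicate 2. Its log2 fold change was 0.35 ± 0.20 (SE), with a 95% confidence interval of -0.13 to 0.82 and an adjusted p of 0.971 in limma. It was 0.14 without the array labelled control replicate 3, which moves the value by more than 1.5 times. With both arrays of high ratio left out, an alternative chosen after seeing the data, it was 0.26 (limma unadjusted p = 0.00962, adjusted p = 0.662). There limma gave an unadjusted p under 0.05 for 7.49% of all genes. The groups then did not overlap, as for 38.3% of all genes, and knockout replicate 2, through which they had overlapped, was among the arrays left out. The second probe set of Hspb8 read 168.9 to 330.1 in the knockout samples and 295.1, 256.9 and 77.96 in the control arrays, the last below background. The third read 158.8 to 185 in the knockout and 161 to 170 in the control samples, with a log2 fold change of 0.07 ± 0.19. The probe sets of Hspb8 thus differed in how far they moved between arrays.

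Bag3, the partner of Hspb8, had intensities of 702.3, 625.5 and 568.7 in the knockout samples and 602.5, 698.7 and 455 in the control arrays. The groups overlapped, with a log2 fold change of 0.13 ± 0.20 (adjusted p = 0.971 in limma).

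Cryab encodes alpha-B-crystallin, which binds desmin and titin and is abundant in oxidative fibres. The knockout samples read 5371, 7117 and 5210 with its brightest probe set, and the control arrays read 5188, 5188 and 7492. The high values were those of the arrays with a high 3' to 5' ratio, 1 in each group, and the other 4 arrays lay within 5188 to 5371. Knockout and control differed by -0.006 ± 0.19 (SE) on the log2 scale, with a 95% confidence interval of -0.46 to 0.44. The second probe set of Cryab did not follow this order, with 2564, 2312 and 2136 in the knockout and 2787, 2974 and 1927 in the control arrays. There the array labelled control replicate 3 was the lowest of all 6, and the log2 fold change was -0.11 ± 0.19. The third probe set read 40.13 to 48.89 and lay below background in every array.

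Hspb2 is the neighbour of Cryab on chromosome 9 and encodes a protein that binds the myotonic dystrophy protein kinase. It read 420.8, 311.3 and 390.2 in the knockout samples and 412.6, 476.7 and 179.4 in the control arrays. Its lowest value was in the array where the brightest probe set of Cryab was highest. The log2 fold change of Hspb2 was 0.18 ± 0.38, and without the array labelled control replicate 3 it was -0.26, on the other side of 0. Dmpk, the kinase that Hspb2 binds, read 1838 to 2366 in the knockout and 2279 to 2910 in the control samples, with a log2 fold change of -0.38 ± 0.15 (unadjusted p = 0.0423, adjusted p = 0.971 in limma), and its groups overlapped.

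Hspb6, known as Hsp20, is a chaperone of striated and smooth muscle. It had the smallest spread of the 7 genes, with 5292, 6124 and 5293 in the knockout samples and 5296, 5562 and 5732 in the control arrays. The highest of these was 1.16 times the lowest, and 5.78% of genes above background had a within-group spread as small or smaller. Between the groups the log2 fold change was 0.008 ± 0.10, with a 95% confidence interval of -0.23 to 0.24.

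Hspb3, a muscle-restricted member that forms complexes with Hspb2, read 649.3, 546.4 and 748.1 in the knockout samples and 683.3, 774.3 and 500.4 in the control arrays. Each group had its lowest value in its array of high 3' to 5' ratio. For Hspb3 the difference was 0.001 ± 0.22 on the log2 scale, with a 95% confidence interval of -0.51 to 0.51.

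Hspb7, a chaperone of heart and skeletal muscle that binds filamin, varied within both groups. Its brightest probe set read 651.4, 808 and 385.8 in the knockout samples and 476.5, 892.1 and 766.6 in the control arrays. Low values occurred in knockout replicate 3 and control replicate 1, neither of which had a high 3' to 5' ratio. Its log2 fold change was -0.23 ± 0.34, with a 95% confidence interval of -1.04 to 0.58, and without knockout replicate 3 it was 0.08. The second probe set of Hspb7 read 123.3 to 263.7 and 136.8 to 219.3 in the groups, with a difference of 0.12 ± 0.33. The third probe set was above background in 4 of 6 arrays, with a difference of 0.05 ± 0.24. Flnc, the muscle filamin, read 793.8 to 1018 in the knockout and 754.4 to 1761 in the control samples, with a log2 fold change of -0.39 ± 0.31.

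**Figure D2:**
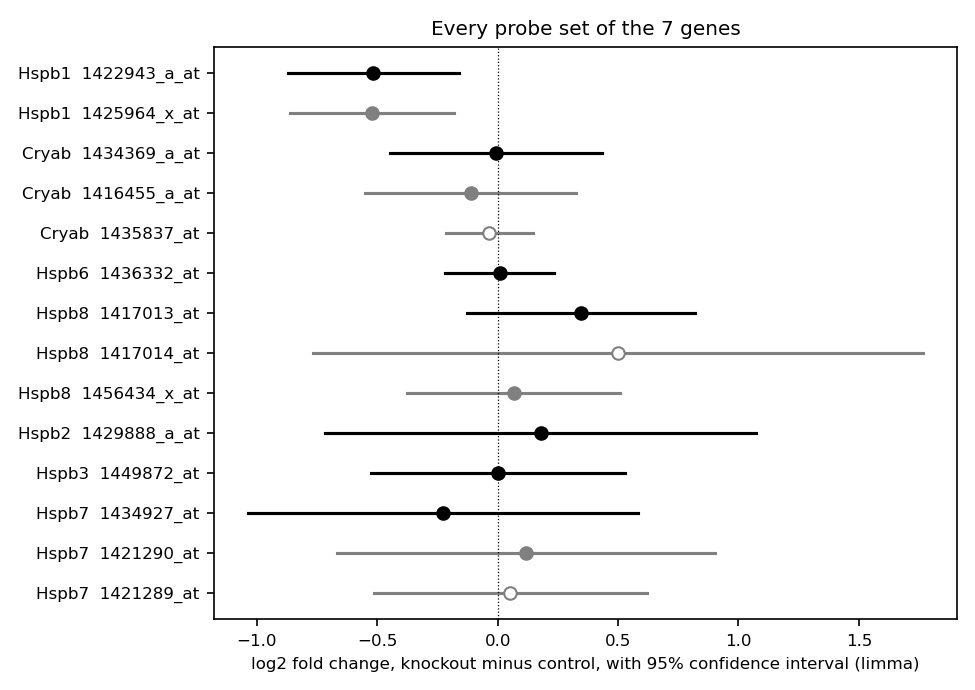
Log2 fold change of knockout over control (horizontal axis) with its 95% confidence interval from limma for each of the 14 probe sets, the brightest of each gene in black and the others in grey. Open symbols mark probe sets not above background in all 6 arrays, and only the intervals of both Hspb1 probe sets, -0.87 to -0.16 and -0.86 to -0.18, leave out 0.

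Several of these genes had outlying values in the arrays of high 3' to 5' ratio, in different directions. On the log2 scale, relative to the mean over the 6 arrays, the array labelled control replicate 3 lay at -0.96 for Hspb2, -0.58 for Hspb8 and -0.36 for Hspb3, and at 0.36 for the brightest probe set of Cryab. Knockout replicate 2, the other array with a high ratio, lay on the same side in each, at -0.16, -0.07, -0.23 and 0.28. Hspb1 lay at -0.002 in the array labelled control replicate 3 and at -0.36 in knockout replicate 2. The part of RNA integrity in the values of these genes was not tested. For Hspb1 the difference with both of these arrays left out, a fit chosen after seeing the data, was -0.59, against -0.52 with all arrays. Its sign there was fixed by the lack of overlap, and the fit does not test the part of RNA integrity.

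**Figure D3:**
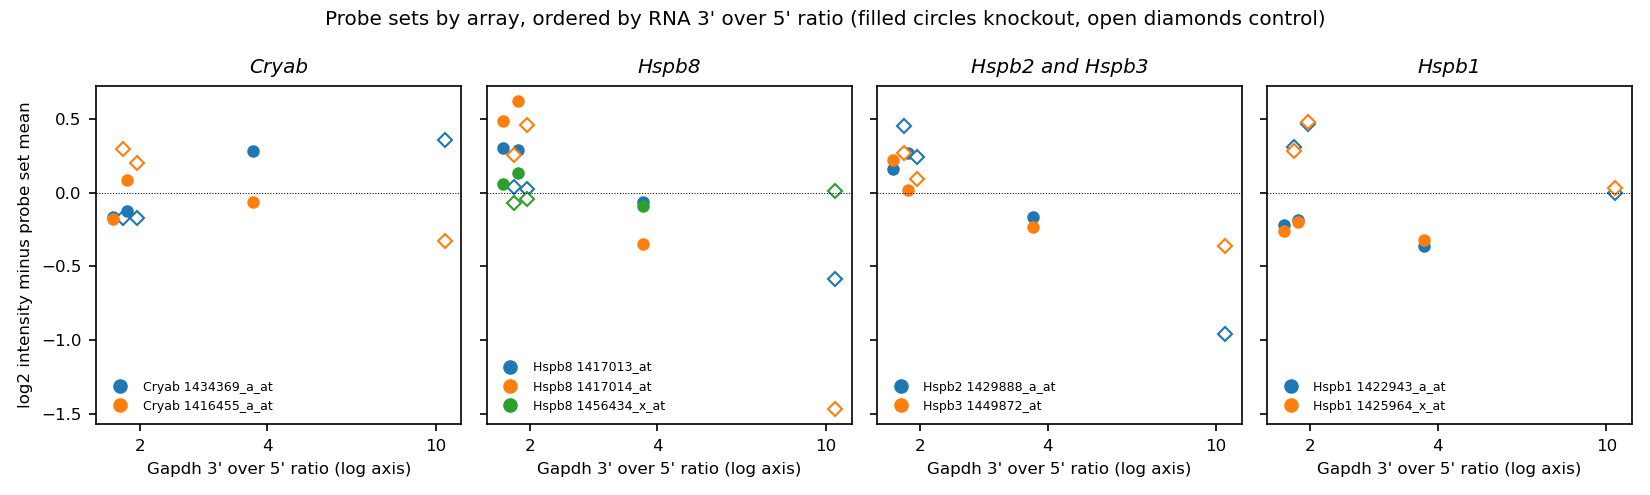
Log2 intensity of single probe sets minus their mean over 6 arrays (vertical axis) against the Gapdh 3' to 5' ratio of the array (horizontal axis, log scale), with knockout samples as filled circles and controls as open diamonds. The array at a ratio of 10.5 lies at -0.96 for Hspb2 and at 0.36 for the brightest probe set of Cryab, and the probe sets of Hspb1 lie close to each other in every array.

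Leaving out arrays changed which genes did not overlap. Without knockout replicate 2 the groups did not overlap for Hspb1, Hspb6 and Hspb8, or 3 of the 7 genes, against 18.1% of all genes. Without the array labelled control replicate 3 they did not overlap for Hspb1 and Cryab, or 2 of 7, against 24.5% of all genes. Without both, Hspb1 and Hspb6 lay lower and Hspb8 and Cryab higher in the knockout, or 4 of 7 genes, against 38.3% of all genes. Smaller groups overlap less often by construction, and Hspb1 could not gain an overlap in these fits. The differences of Hspb6 and Cryab were then -0.036 and 0.028 on the log2 scale.

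**Figure D4:**
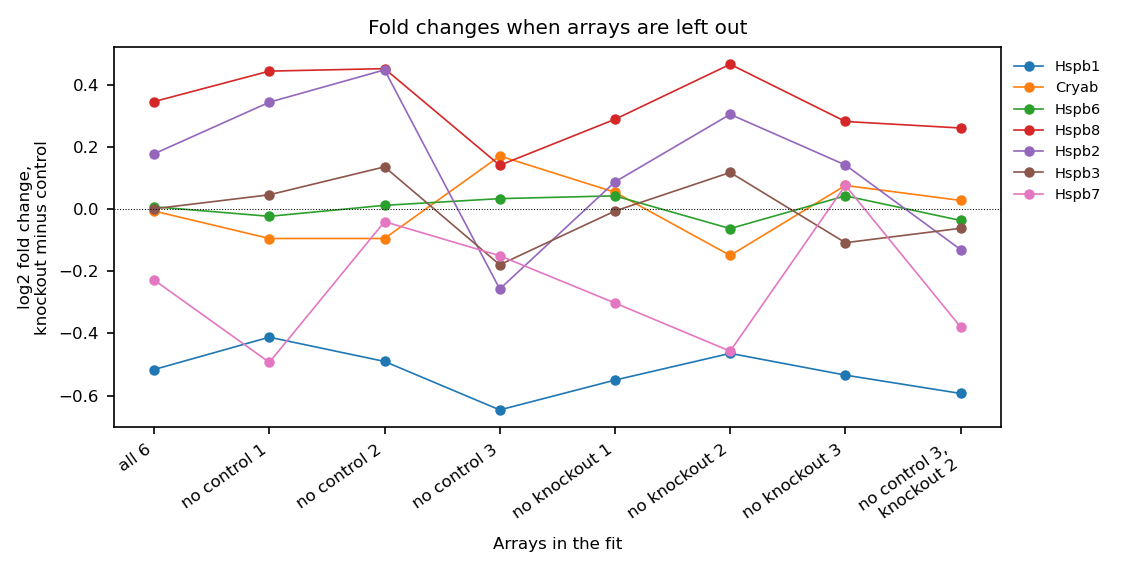
Log2 fold change of each gene (vertical axis, knockout minus control) with all 6 arrays, with each array left out, and with both arrays of high Gapdh 3' to 5' ratio left out (horizontal axis). Hspb1 lies between -0.65 and -0.41 and Hspb8 between 0.14 and 0.47, while Hspb2 runs from -0.26 to 0.45.

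Of 4 other genes of the family, 3 had means below background in this muscle and Hspb11 was above it. Cryaa, the alpha-A-crystallin of the lens, read 47.72 to 56.54 over all arrays. Hspb9 and Odf1, which are known from testis, read 39.94 to 48.15 and 43.97 to 55.83. Hspb11, a component of intraflagellar transport that carries the family name, read 153.1 to 186.1 in the knockout and 76.09 to 230.3 in the control arrays, with a log2 fold change of 0.22 ± 0.42.

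The lists of ATP-driven chaperones and their partners, some of them in the endoplasmic reticulum or mitochondria, had 0 genes past the adjusted threshold in limma, higher or lower. Of 15 Hsp70 genes 6 had higher and 9 lower values in the knockout, with a median log2 fold change of -0.05, and 14 were above background. In that list Hspa2 lay higher without overlap, as did 3.33% of all genes, with 361.7, 361.7 and 542.5 in the knockout and 311.5, 280.2 and 181.7 in the control arrays (0.72 ± 0.28, unadjusted p = 0.0368, adjusted p = 0.971 in limma). Hspa4l, a nucleotide exchange factor of Hsp70, had a difference of -0.67 ± 0.31. The stress-inducible Hspa1b, a frequent readout of heat shock factor activity, read 305.9 to 557.7 in the knockout and 258.2 to 774.2 in the control arrays, and its near-identical copy Hspa1a was below background; these 2 genes share sequence, so their values are uncertain. Of 14 Hsp40 genes, which deliver clients to Hsp70, 5 had higher and 9 lower values with a median of -0.03 and 0 without overlap. Dnajb1, a heat-inducible member, had 0.59 ± 0.44 and Dnajb4 had -0.25 ± 0.15.

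Hsp90 and its co-chaperones were measured for 11 genes. With each single array left out 7 to 9 of the 11 were lower in the knockout, against 52% to 57.2% of all genes. Those fits share most of their arrays and are not independent. The summed intensities of the 11 genes were 8904 to 9694 in the knockout and 9782 to 10780 in the control samples. Of 11 measured genes 7 had lower and 4 higher values, where 53.7% of all genes were lower, with a median log2 fold change of -0.15, and 3 (Ahsa1, Cdc37 and Unc45b) had all knockout values below all control values, as did 5.68% of all genes. Ahsa1, which activates the ATPase of Hsp90, read 1012, 902.6 and 1073 in the knockout and 1345, 1370 and 1123 in the control arrays. Its log2 fold change was -0.36 ± 0.14 (unadjusted p = 0.0417, adjusted p = 0.971 in limma). Unc45b, the muscle chaperone that folds myosin with Hsp90, had -0.15 ± 0.12, and Trap1, the mitochondrial Hsp90, had -0.26 ± 0.19. Hsp90aa1, the heat-inducible cytosolic Hsp90, had 0.02 ± 0.19, and Hsp90b1, the Hsp90 of the endoplasmic reticulum, had 0.20 ± 0.23. Hsp90ab1, Ptges3 and Ppid had no probe set with a single gene symbol.

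The chaperonins, which fold actin and tubulin in the cytosol and matrix proteins in mitochondria, were measured for 10 genes, 6 lower and 4 higher, with a median of -0.06. Of the 10, 1 (Cct7) lay lower without overlap, as did 5.68% of all genes. Cct7 read 2437, 2304 and 2572 in the knockout and 3188, 2977 and 2844 in the control arrays (log2 fold change -0.30 ± 0.11, unadjusted p = 0.0253, adjusted p = 0.971 in limma). Cct3 had -0.38 ± 0.18. Of the factors that control heat shock transcription, Hsf4 read 83.84 to 94.62 in the knockout and 91.24 to 104.3 in the control arrays, close to background, and Hsf2 had a mean below background. Hsbp1, a protein that binds heat shock factor 1, had a difference of 0.02 ± 0.22, and Hsf1 had no probe set with a single gene symbol.

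Genes of the BAG family and of chaperone-assisted autophagy were split, 5 higher and 6 lower of 11, with a median of -0.04. Of the 11, 1 (Bag2) lay lower without overlap, as did 5.68% of all genes. Bag2 read 201.1 to 231.5 in the knockout and 262.8 to 272.7 in the control samples (-0.34 ± 0.18, limma unadjusted p = 0.097). Wipi1, an autophagy gene, had 0.25 ± 0.18 and Synpo2, the Z-disc adaptor of Bag3, had 0.05 ± 0.11.

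A list of sarcomere and cytoskeleton genes, which holds clients of the small heat shock proteins beside other structural genes, had 7 genes higher and 7 lower of 14 measured. Its median was 0.001 (6 higher and 8 lower with quantile normalization). Desmin (Des), a client of Cryab, had a difference of -0.010 ± 0.21. Titin (Ttn) read 6422 to 7528 in the knockout and 5843 to 6116 in the control samples, with a difference of 0.17 ± 0.10 (unadjusted p = 0.122).

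**Figure D5:**
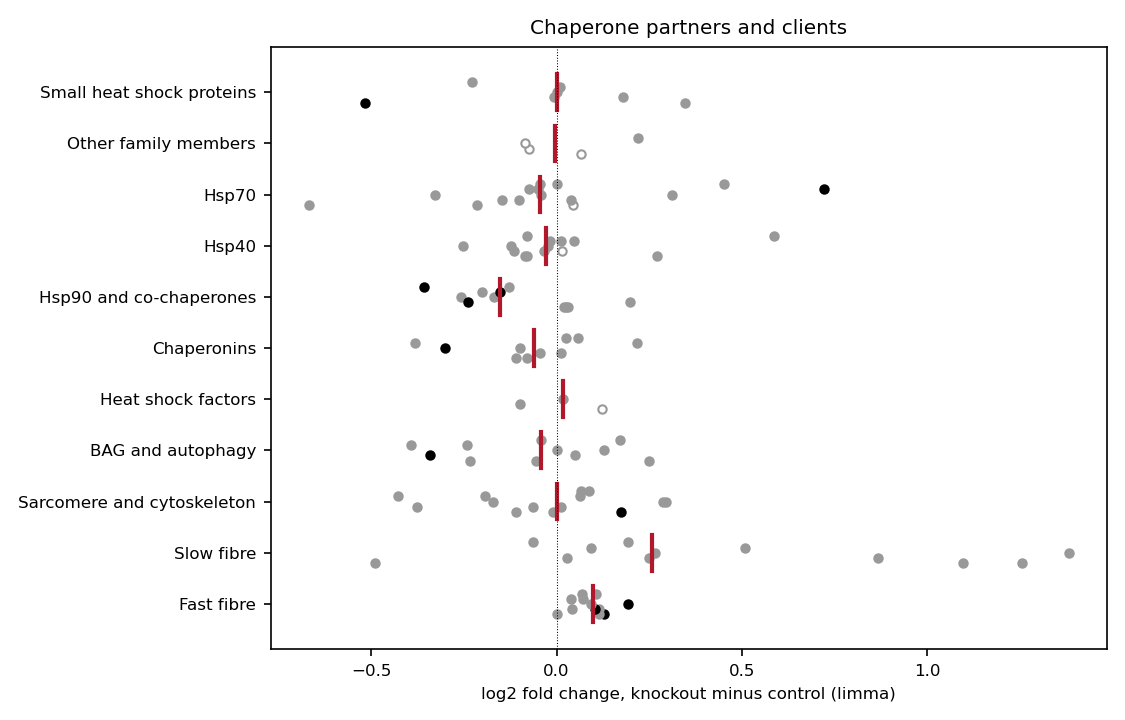
Log2 fold change of knockout over control (horizontal axis) for each gene of the lists named on the vertical axis, in black where the groups do not overlap and open where the mean is below background, with red bars for list medians. The median of the 7 small heat shock proteins is 0.001 and that of Hsp90 and its co-chaperones -0.15.

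Fibre type was read beside these genes, since several small heat shock proteins are more abundant in slow fibres. Of 12 slow-fibre genes 10 had higher values in the knockout, with a median log2 fold change of 0.26. The count turned without control replicate 1, where 3 of 12 were higher and the median was -0.18. Myh7, the slow myosin heavy chain, read 1114 to 2423 in the knockout and 85.91, 1192 and 3091 in the control arrays. The low value was that of control replicate 1, where Hspb7 was low as well, at -0.42 on the log2 scale relative to its mean, and Hspb1 was at its highest. Cryab did not mark that array, with -0.17 for its brightest probe set, as in control replicate 2, and 0.20 for the second. Tnnc1 had a difference of 1.26 ± 0.79 and Ankrd2 one of -0.49 ± 0.28. All 12 fast-fibre genes had log2 fold changes above 0, with a median of 0.10, though with quantile normalization 8 of the 12 were above 0 and the median was 0.038. Tnnt3 had 0.19 ± 0.08 and Myh4 0.13 ± 0.08. Acta1, whose promoter drives the cre, had 0.13 ± 0.08 (adjusted p = 0.971 in limma). The part of fibre composition in the values of the small heat shock proteins was not tested.

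Averaged over the 7 genes, the centred log2 profile ran from -0.18 in the array labelled control replicate 3 to 0.20 in control replicate 2, with -0.07 to 0.03 in the other 4 arrays. The nearest profiles among genes above background, by root mean square difference over the 6 arrays, were those of Mypn at 0.0245, Rptor at 0.0264, Ufm1 at 0.0336, Chd4 at 0.0379 and Mocos at 0.0397, against a median of 0.263 over genes above background. Mypn encodes myopalladin, a Z-disc protein, and Rptor encodes the raptor subunit of the mTOR complex. The average hides opposite movements, since in the array labelled control replicate 3 Hspb2 lay at -0.96 and Cryab at 0.36.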

How the data were processed

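Quadriceps RNA of 6 samples was measured on 1 Affymetrix array each. Per the labels' protocols, Trizol extraction and a silica membrane gave the RNA, and the NuGEN Ovation system gave amplified, biotin-labelled cDNA. The deposited intensities are on a linear scale, as read from the values; GCOS and RMA are named, without versions or order, per the submitters' processing notes, so a later rescaling is unknown. Summaries of this kind compress fold changes of dim genes.

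The table held 45101 probe sets, of which the platform annotation listed 34958 with 1 gene symbol, 932 with several and 9211 not at all, and 64 control probe sets were left out. Each gene was represented by its brightest probe set (highest mean log2 over all 6 arrays), and further probe sets were fitted in a model over all probe sets. Log2 intensities, with no pseudocount, entered limma 3.58.1 (R 4.3.3) with group as the only term and a variance trend in eBayes (two-sided; Benjamini-Hochberg over all genes at 0.05), tested on simulated data first. The number of arrays limits the precision. The genes of the family, the lists and the tests were chosen with earlier results of these data known. Named genes were all 7 genes with all probe sets, Pofut1, Acta1, the 2 genes of smallest p above background in each of 10 lists, and the 5 nearest profiles. Others (Bag3, Flnc, Des, Myh7, Hspa1a, Hspa1b, Hsp90aa1, Synpo2, Cdc37, Unc45b, Hsp90b1, Hsf2, Lmod1, Myh11, Mylk, Cdh5, Folr2, Ms4a7, Cryaa, Hspb9 and Odf1) were named for their known roles or after their values were seen. Replicate numbers are not said to pair the samples. Deviations of same-numbered arrays correlated at 0.194, -0.146 and -0.114, which with 3 arrays per group cannot show whether samples were paired. Promoter sequences and chromosomes came from RefSeq tables of GRCm38.p6.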

Additional observations from a re-analysis of the deposited data

How the results depend on the processing

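Over the 16 alternatives run for each, the difference was -0.65 to -0.41 for Hspb1 and 0.14 to 0.47 for Hspb8. For Hspb1 the sign in the fits that leave out arrays is fixed by the lack of overlap. Neither gene passed the adjusted threshold in any (limma adjusted p of 0.147 to 1 and 0.496 to 1). The lowest value for Hspb1, an adjusted p of 0.147, came with array weights. No gene of all those measured, and none of the 7, passed under any alternative. The count of genes of the family without overlap, 1 with all arrays, was 1 to 3 with single arrays left out, 4 with both arrays of high Gapdh 3' to 5' ratio left out (chosen after seeing the data), and 2 over every probe set, both of Hspb1. The median difference of the 7 genes ran from -0.15 to 0.08 with single arrays left out.

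The sign of small differences turned as follows. With array weights they were -0.12 for Hspb2, -0.083 for Hspb3, -0.00047 for Hspb6 and 0.076 for Cryab. With quantile normalization they were -0.018 for Hspb3 and -0.0052 for Hspb6. With both arrays of high ratio left out they were -0.13 for Hspb2, -0.062 for Hspb3, -0.036 for Hspb6 and 0.028 for Cryab. With single arrays left out the ranges were -0.26 to 0.45 for Hspb2, -0.18 to 0.14 for Hspb3, -0.063 to 0.043 for Hspb6, -0.49 to 0.08 for Hspb7 and -0.15 to 0.17 for Cryab. The cause of these turns was not tested. Counts per list with arrays left out were added after seeing the data. With the replicate block, 0 genes passed and Hspb1 had -0.52 (unadjusted p = 0.0228).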
